A study of Mus musculus with 4 samples.

Results

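Axon guidance ligands and receptors are the secreted and surface proteins that steer growing axons. They were taken here as the protein-coding genes of the RefSeq table of GRCm38.p6 whose symbols name a semaphorin, plexin, neuropilin, Slit, Robo, ephrin, Eph receptor, netrin, netrin-G, Unc5 or Dcc. This rule uses no measured value and gave 71 of 21887 protein-coding genes, 37 of ligands and 34 of receptors. A gene was marked when the summit of a peak lay within its span extended by 30 kb on both sides, and 33 of the 71 were marked. The peaks come from striatum of mice with TRα1, a nuclear receptor for thyroid hormone, fused to a GS tag. The animals carry Gad2-Cre, a driver active in GABAergic neurons, and a Thra-GS allele, and the labels do not say whether the tag depends on Cre. The GS tag holds protein G domains, which IgG-coated beads capture. The series has 1 input, made without antibody, and 3 IP fractions from such beads, and all 4 libraries are labelled as striatum with no age or sex. The deposited result is 1 list of 7484 peaks for the IP against the input, so no value has a spread between fractions, and an IP from animals without the tag was not analysed here.

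Guidance cues act in matched sets. Class 3 semaphorins are secreted and signal through neuropilins and plexins, while classes 4 to 7 are mostly membrane-bound and bind plexins directly. Slits repel axons through Robo receptors, netrins attract or repel through Dcc and Unc5, and ephrins and Eph receptors signal between touching cells, ephrins of class A being lipid-anchored and those of class B transmembrane. Thyroid hormone receptors bind DNA as partners of retinoid X receptors, classically at paired AGGTCA half-sites with a spacer, and the striatum is a target of the hormone during development.

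At 4 of the 71 genes, all among the 61 with a RefSeq promoter window, a peak covered bases of that window. These stretches are shown first because they are where the list touches a member's start. The same count over other genes was not made. By a related measure, 12.1% of pairs of a member and a peak had the summit within 1 kb of the start. In length-matched genes it was 11.7%. The table holds at least 1 window, from 250 bases before to 50 after the start, for 61 of the 71 genes. Printed are the 250 bases before the start on GRCm38.p6, 5′ to 3′ on the gene's strand, with bases inside the deposited peak in capitals. The Efnb1 stretch is chrX:99135811-99136060 on the plus strand and that of Plxna2 is chr1:194619579-194619828 on the plus strand. The Ephb1 stretch is chr9:102354694-102354943 on the minus strand and that of Epha3 is chr16:63864176-63864425 on the minus strand.
Efnb1: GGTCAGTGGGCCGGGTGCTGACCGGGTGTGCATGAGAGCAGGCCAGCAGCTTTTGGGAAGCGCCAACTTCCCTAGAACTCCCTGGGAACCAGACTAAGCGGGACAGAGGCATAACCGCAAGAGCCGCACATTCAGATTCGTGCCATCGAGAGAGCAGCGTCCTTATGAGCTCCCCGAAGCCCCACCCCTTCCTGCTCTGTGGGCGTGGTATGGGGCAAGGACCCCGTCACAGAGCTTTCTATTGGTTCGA
Plxna2: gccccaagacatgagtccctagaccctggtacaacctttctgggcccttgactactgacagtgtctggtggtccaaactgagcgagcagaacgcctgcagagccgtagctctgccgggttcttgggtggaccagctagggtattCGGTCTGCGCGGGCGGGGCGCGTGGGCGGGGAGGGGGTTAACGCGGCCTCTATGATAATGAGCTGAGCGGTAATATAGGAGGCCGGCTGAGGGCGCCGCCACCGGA
Ephb1: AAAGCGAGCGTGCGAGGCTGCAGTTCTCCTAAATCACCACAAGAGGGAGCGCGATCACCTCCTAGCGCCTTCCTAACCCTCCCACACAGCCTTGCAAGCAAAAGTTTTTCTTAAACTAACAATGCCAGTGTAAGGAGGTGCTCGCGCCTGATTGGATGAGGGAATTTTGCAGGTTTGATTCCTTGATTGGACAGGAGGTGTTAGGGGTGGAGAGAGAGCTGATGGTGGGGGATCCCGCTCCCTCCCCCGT
Epha3: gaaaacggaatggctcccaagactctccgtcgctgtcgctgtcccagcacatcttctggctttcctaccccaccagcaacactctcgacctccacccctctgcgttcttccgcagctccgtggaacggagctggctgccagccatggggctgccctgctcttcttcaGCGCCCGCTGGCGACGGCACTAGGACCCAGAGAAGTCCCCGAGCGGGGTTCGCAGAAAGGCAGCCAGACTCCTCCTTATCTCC
In Efnb1 and Ephb1 the peak covered all 250 bases, in Plxna2 the 106 nearest the start and in Epha3 the 83 nearest the start. Over the whole 300 base windows these promoters held 14 CG pairs in Efnb1, 25 in Plxna2, 14 in Ephb1 and 18 in Epha3, against a median of 19 in the 77 windows of axon guidance genes and 13 in 21263 windows of protein-coding genes. None of the 4 windows contained AGGTCA on either strand. That half-site was in 11 of 77 promoter windows of axon guidance genes, 14.3%, in 14.7% of the windows of protein-coding genes and in 16.3% of all 32851 windows of the table. Direct repeats of AGGTCA with 4 bases between them (DR4), searched on both strands with at most 1 mismatch over both half-sites, were in 0 of the 77 windows, in 0.19% of those of protein-coding genes and in 0.25% of all windows. At such low shares 77 windows are too few to be informative. Each such repeat also holds at least 1 exact half-site. These counts describe letters in 300 bases and not receptor sites.

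Of the 71 genes, 33 had a peak, 46.5% (95% exact interval 34.5 to 58.7), beside 32.4% of all protein-coding genes. The members are long genes, with a median length of 53.4 kb against 17.2 kb for all protein-coding genes, and a longer gene has a wider window. Other genes spread over length deciles as the members are had a peak in 42.5%, which corresponds to 30.1 of 71. The difference of 4.02 percentage points is smaller than the counting interval of the members' share, which reaches from -7.91 to 16.3 around the matched share. With the 50 genes nearest in length to each member the matched share was 44.8%. The share of axon guidance genes with a peak was thus within counting error of that of genes of their length. Counting peaks of −log10 q from 10 upwards alone, 22 of the 71 had one, 31.0%, beside 20.4% of all protein-coding genes and 28.2% of length-matched ones. With only those above the median fold, 22 again had one, beside 19.5% of all genes and 26.8% of length-matched ones.

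Over 3 pooled classes of gene length the members' share was nearly level, while that of other genes rose with length. By single decile the members' share was uneven, for example 0% of 3 genes in decile 3 and 80% of 5 in decile 6. Among the 18 members up to 17.2 kb long, 8 had a peak, 44.4% (exact interval 21.5 to 69.2), where 25.7% of all protein-coding genes up to that length had one. That background includes deciles 1 and 2, which hold no member. In deciles 3, 4 and 5, where these members lie, 28.5, 32.0 and 31.8% of other genes had a peak. Of the 22 members from 17.2 to 108.5 kb, 11 had a peak, 50% (28.2 to 71.8), where the background was 35.4%. Of the 31 members longer than that, 14 had a peak, 45.2% (27.3 to 64.0), where the background was 54.3%. Each of the 3 intervals includes its background, and the trend itself was not tested. Members and other genes held 0.5 and 0.367 peaks per gene in the shortest class, 0.909 and 0.519 in the middle one, and 1.13 and 1.18 in the longest.

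**Figure D1:**
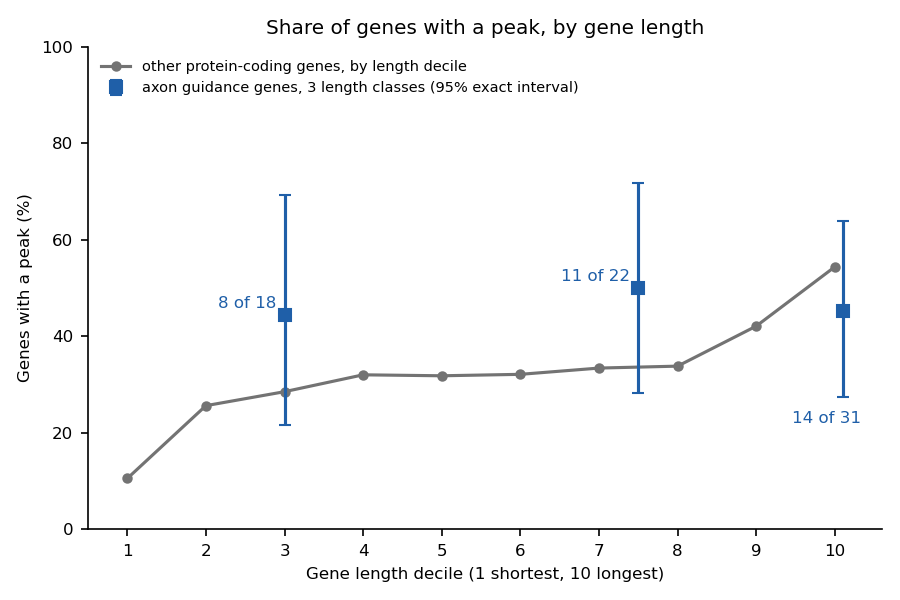
Share of genes with a peak (%, vertical axis) against gene length decile (horizontal axis). Grey points joined by a line are other protein-coding genes, blue squares are axon guidance genes in 3 length classes with 95% exact intervals. Other genes rise from 10.5% in decile 1, which holds no member, to 54.4% in decile 10. The 3 pooled classes of members lie between 44.4% and 50%, and their single deciles are not drawn.

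The 33 genes had 63 distinct peaks, 1 of which lay in the windows of both Robo3 and Robo4. These peaks had a median fold enrichment over background of 6.59 (95% order-statistic interval 6.12 to 7.05), beside 6.91 for the whole list and 6.91 for the 6100 peaks at any protein-coding gene. Folds of 10 or more were seen at 10 of the 63, 15.9% (exact interval 7.88 to 27.3), and at 23.9% of the list. At the summits stood 11 to 136 scaled fragments with a median of 21, over a local background of 1.89 to 6.0 in pileup units. Windows of the members held 0.356 peaks per 100 kb (exact Poisson interval 0.273 to 0.455), close to the 0.394 of other genes of the same lengths. Of 64 pairs of a gene and a peak, 44 had the summit inside the gene, 68.8% (exact interval 55.9 to 79.8), beside 59.3% for genes of the same lengths. With the RefSeq start known, 7 of 58 pairs, 12.1% (exact interval 4.99 to 23.3), lay within 1 kb of the member's own start, beside 11.7% in length-matched genes.

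**Figure D2:**
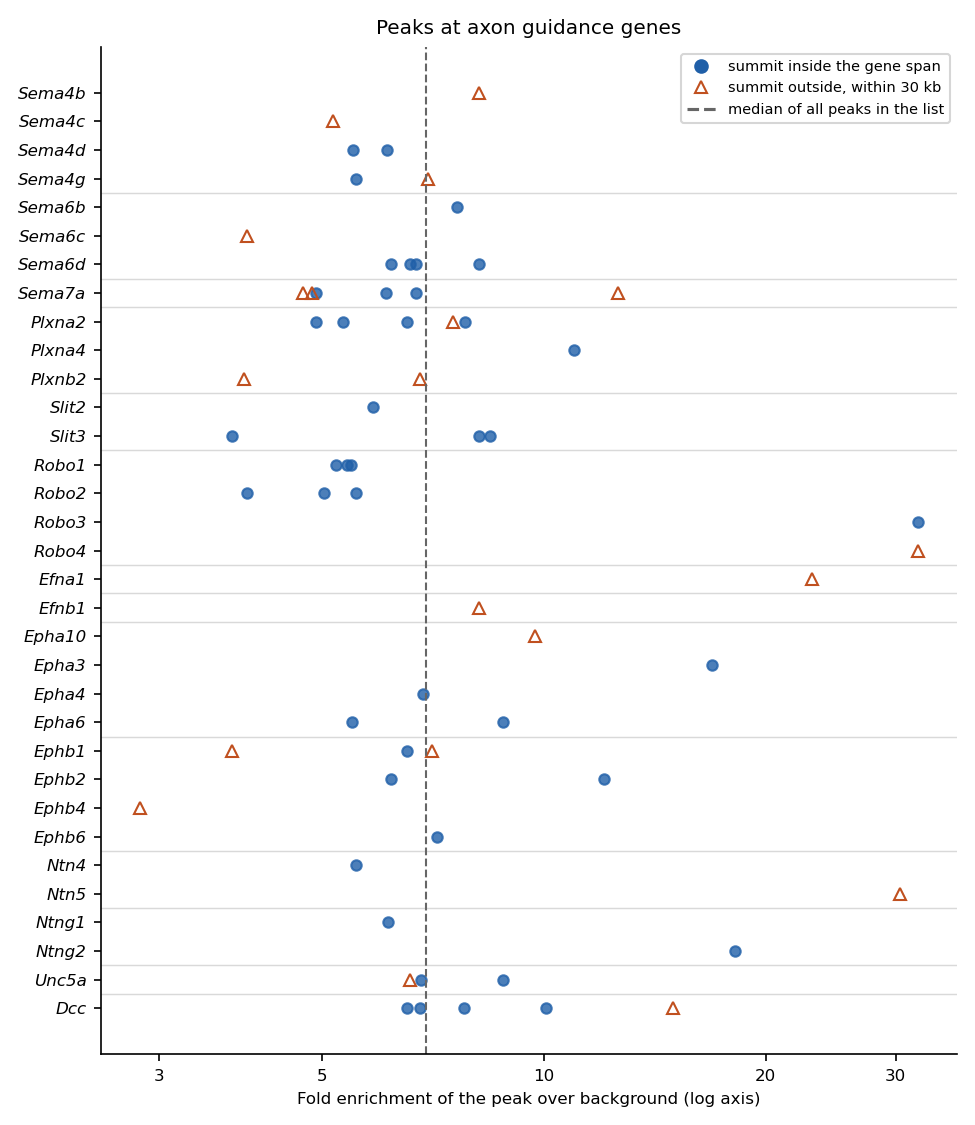
Fold enrichment (horizontal log axis) of every peak at the 33 axon guidance genes with a peak, 1 row per gene, ordered by family. Filled circles are summits inside the gene, open triangles summits outside within 30 kb, and the dashed line is the list median of 6.91: most points lie between 5 and 10, and Robo3, Robo4, Ntn5 and Efna1 stand to the right of 20.

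Among the guidance ligands, the semaphorins split by class. None of the 7 class 3 genes, Sema3a to Sema3g, and neither class 5 gene, Sema5a and Sema5b, had a peak, whereas 8 of the 11 genes of classes 4, 6 and 7 had 1 to 6 each. At the share of genes of their lengths, 4.2 of the 9 and 4.1 of the 11 would have had one. The exact intervals were 0 to 33.6% for the 9 and 39.0 to 94.0% for the 11. This grouping by class was chosen after its values were seen, and it was not tested. The class 3 genes are also not 7 separate places. Sema3a, Sema3d and Sema3e lay in 1 stretch of 5.25 Mb on chromosome 5 without a summit, and Sema3c in another of 3.87 Mb. Sema3b and Sema3f shared a stretch of 511 kb on chromosome 9. Over all chromosomes, the median distance between neighbouring summits of the list was 126 kb. That median counts each stretch once, whatever its length, and the share of all genes that lie in long stretches was not computed.

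Sema7a, whose lipid-anchored product also signals through integrins, had the most peaks of any member. Its 6 peaks had folds of 12.6, 6.71, 6.10, 4.90, 4.85 and 4.71, of which 3 were inside this gene of 23.3 kb. The strongest, at chr9:57988124-57988447, lay 25.4 kb above the gene and nearer to Cyp11a1, a steroid synthesis gene, at 9736 bp. The other 5 peaks of Sema7a were all below the list median.

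Sema6d, a transmembrane semaphorin gene of 577.8 kb, had 4 peaks, all inside. Their folds were 8.15, 6.71, 6.59 and 6.20. The peak of 6.71 lay 3.5 kb and that of 6.20 lay 1.7 kb downstream of a RefSeq start, and these are different starts, since the summits are near opposite ends of the gene. Sema6b had 1 peak of 7.62 at 1952 bp downstream of its start. Sema6c had a peak of 3.96 at 5077 bp beyond its upper end, nearer to Gabpb2, a transcription factor subunit gene.

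Of the 6 peaks at class 4 semaphorin genes, 2 were above the list median of 6.91. Sema4b had 8.16 at 4289 bp before its start, Sema4d, which acts on plexin B1, had 6.12 and 5.50 inside the gene, and Sema4g had 6.96 beyond and 5.55 inside. The peak of 5.18 at Sema4c was 18 bp from an end of Ankrd39 and inside that gene. Sema4a and Sema4f had no peak, with the nearest summits at 54.2 and 99.1 kb, and neither had Sema6a.

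The plexins, the receptors for semaphorins, had peaks at 3 of 9 genes, where genes of their lengths would give 3.6. Plxna2 had 5 peaks whose folds were 7.82, 7.53, 6.52, 5.34 and 4.90. The second of these, at chr1:194619723-194619958, is the one in the promoter printed above, with its summit 41 bp before the RefSeq start. The other 4 lay 56.5 to 87.1 kb downstream, 3 of them within the non-coding gene Gm46202.

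Plxna4 had 1 peak of 10.98 inside the gene, 201.7 kb from the nearer end. Plxnb2 had peaks of 6.79 and 3.92 outside its span, the first inside Dennd6b and the second nearer to Ppp6r2. No peak was found at Plxna1, Plxna3, Plxnb1, Plxnb3, Plxnc1 or Plxnd1. Both neuropilin genes, the co-receptors of class 3 semaphorins, were also without a peak, with nearest summits at 190.4 kb from Nrp1 and 214.3 kb from Nrp2.

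Of the 7 Slit and Robo genes, 6 were marked (exact interval 42.1 to 99.6%), where genes of their lengths would give 3.4. Among the ligands, Slit3 had 3 peaks inside the gene with folds of 8.46, 8.15 and 3.77, the first 2 lying 57.2 and 48.4 kb downstream of the start. Slit2 had 1 of 5.87 at 25.1 kb downstream of its start. Slit1 had none within 148.9 kb.

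All 4 Robo genes were marked, but through 7 peaks of very different strength. Robo3, whose product controls midline crossing of commissural axons, held the strongest peak of any member, with a fold of 32.2 at chr9:37430456-37430999 and 136 fragments, rank 42 of the list. Its summit was inside Robo3, 2409 bp downstream of the start. The window of the neighbouring Robo4, which is known from blood vessels, took in the same peak at 16.7 kb, so the pair counts as 1 place. Robo1, of 1020.0 kb, had folds of 5.48, 5.41 and 5.22, and Robo2, of 1555.5 kb, had 5.55, 5.03 and 3.96. All 6 peaks of these long genes were below the list median. The Robo1 peak of 5.22, at chr16:72663474-72663766, lay 459 bp downstream of the gene's only listed start, which is inside the annotated span, 384.3 kb from its nearer end.

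The ephrins had peaks at 2 of 8 genes, where genes of their lengths would give 2.7. Efna1 was marked by a peak of 23.1 at chr3:89245409-89246486, 25.4 kb from the gene, whose summit lay inside both Trim46 and Krtcap2, 17 bp from an end of Trim46. Efnb1, on the X chromosome, had a peak of 8.15 at chrX:99135807-99136113, with its summit 81 bp before the start in the promoter printed above. The remaining ephrin genes had none, and Efna3 and Efna4 lie next to each other in 1 stretch without a summit.

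Eph receptors had peaks at 8 of 14 genes, 57.1% (exact interval 28.9 to 82.3), where 43.5% of genes of their lengths had one. In the A class, Epha3 had 1 peak of 16.9 at chr16:63863883-63864258, with its summit 132 bp downstream of the start and 51 fragments. Epha6 had folds of 8.80 and 5.49 and Epha4 had 6.86, all far inside these genes. Epha10 had 9.72 at 25.5 kb above the gene, inside the predicted gene 9930104L06Rik. Epha1, Epha2, Epha5, Epha7 and Epha8 had no peak, and no summit lay within 1 Mb of Epha5 or Epha7.

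In the B class, 4 of 5 genes were marked (exact interval 28.4 to 99.5%), where genes of their lengths would give 2.0. Ephb1 had peaks of 7.05 and 6.52 on either side of its start, at 294 bp before and 555 bp after, and another of 3.77 below the gene. The peak of 7.05, at chr9:102354616-102355351, had 44 fragments, a pileup of 41.32, over a background of 5.0. Its fold is therefore lower than its height would give over the members' median background of 2.0. Ephb2 had 12.05 at 42.6 kb and 6.20 at 93.7 kb downstream of its start, both inside the gene. Ephb6, a kinase-dead receptor, had 7.17 at 540 bp before its start. Ephb4 was marked only by the weakest peak of all members, a fold of 2.83 over a background of 6.0, inside Slc12a9. Ephb3 had none, with the nearest summit at 49.5 kb.

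Netrins and their receptors differed between genes. Ntng2, a lipid-anchored netrin-G gene of synapse organisers, had a peak of 18.2 at chr2:29237700-29238217, inside the gene and 10.2 kb downstream of the start, with 57 fragments. Its relative Ntng1 had 6.14 far inside, 236.8 kb from the start. Of the classical netrins, Ntn4 had 5.55 inside the gene, and Ntn1 and Ntn3 had none. Ntn5 was marked by a peak of 30.4 at chr7:45707481-45708139, 13.3 kb from the gene and inside Dbp, a circadian output factor gene.

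Dcc, the netrin-1 receptor on chromosome 18, had 5 peaks with folds of 14.97, 10.05, 7.79, 6.79 and 6.52. The strongest lay 1483 bp beyond the upper end of this gene of 1097.6 kb, and the other 4 were inside, 30.8 to 435.2 kb from the nearer end. No other protein-coding gene end was within 1 Mb of any of them. Of the Unc5 receptors, Unc5a had 3 peaks of 8.80, 6.82 and 6.59, the last inside Hk3, a hexokinase gene. Unc5b, Unc5c and Unc5d had none, with nearest summits at 335.9, 726.4 and 1682.5 kb.

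**Figure D3:**
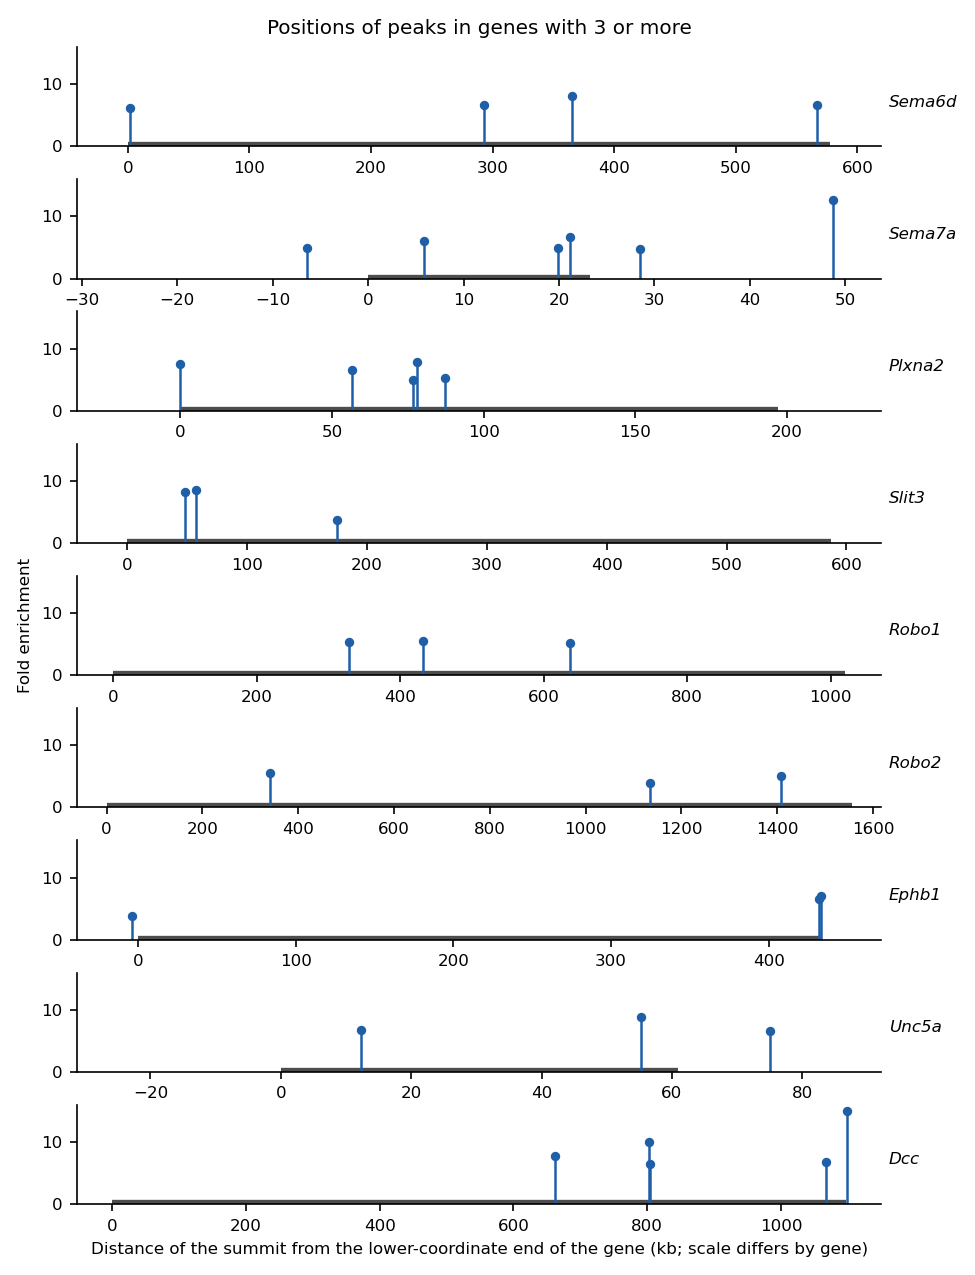
Fold enrichment (vertical axis) and position of every peak (stems) in the 9 axon guidance genes with 3 or more, in kb from the lower-coordinate end of the gene (horizontal axis, scaled per gene, grey bar for the gene span). Dcc, Sema7a and Unc5a have peaks beyond the upper end, the 2 close Ephb1 stems mark its start, and the Robo1 and Robo2 peaks are scattered far inside.

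By family, receptors were marked at 17 of 34 genes and ligands at 16 of 37, and the share of genes of the same lengths would give 15.0 in both. Families are small and their exact intervals wide. The class 3 semaphorins had an interval of 0 to 41.0%, beside 45.0% for genes of their lengths. That interval counts the genes as separate places, although Sema3a, Sema3d and Sema3e share a stretch without a summit and Sema3b and Sema3f another. It is therefore too narrow, and no depletion can be read from it. The Robo genes had an interval of 39.8 to 100%, which includes their 43.2%. Both families were singled out after their values were seen. Differences between families were not tested.

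**Figure D4:**
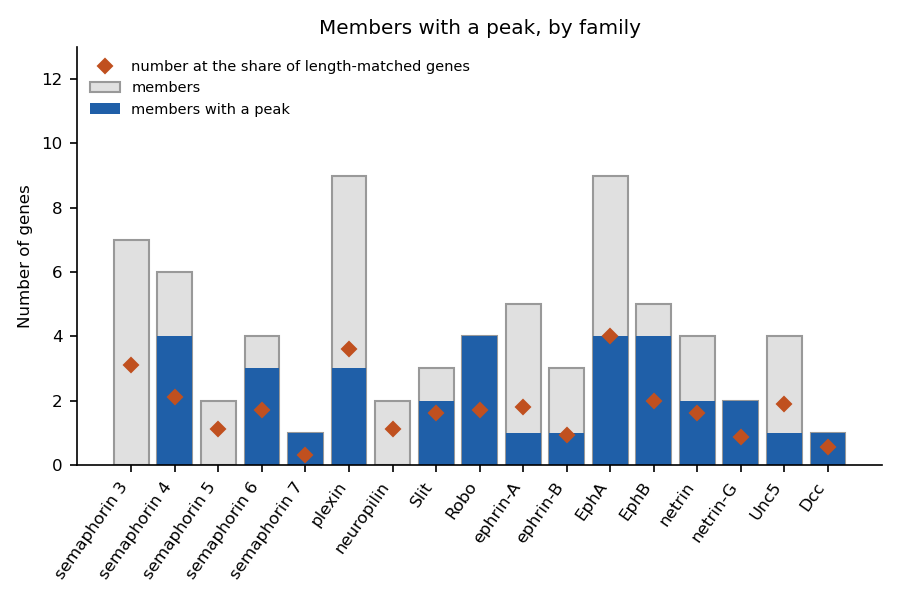
Number of genes (vertical axis) in each guidance family (horizontal axis): grey bars are members, blue bars those with a peak, and orange diamonds the number that the share of length-matched genes would give. Blue bars lie below the diamond at semaphorins 3 and 5, the neuropilins, plexins, ephrin-A and Unc5 genes. They lie above it at semaphorins 4, 6 and 7 and at the Slit, Robo, EphB, netrin, netrin-G and Dcc genes. At the EphA and ephrin-B genes bar and diamond nearly meet. Robo3 and Robo4 are marked by a shared peak.

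Most peaks had the member as the nearest protein-coding gene, 51 of 64 pairs and 7 of the 10 peaks with folds of 10 or more. In 44 of the 64 pairs the summit was inside the member, which makes it the nearest, or tied for nearest, by definition. The same shares for pairs of other genes and peaks were not computed. Of the 3 peaks with folds above 20, the one at Robo3 was inside the member, and those at Efna1 and Ntn5 were inside other genes. Of the 33 genes, 25 were the nearest protein-coding gene to at least 1 of their peaks. They are 35.2% of the 71 members, beside 18.7% of all protein-coding genes and 31.8% of length-matched ones by the same rule. The other 8 were Efna1, Epha10, Ephb4, Ntn5, Plxnb2, Robo4, Sema4c and Sema6c, all of which had their peaks outside the span.

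The 30 kb limit fell in a sparse range of distances. Just inside it were Epha10, with its nearest summit at 25.5 kb, and Efna1, at 25.4 kb. Just outside were Efna2 at 30.6 kb and Plxnd1 at 43.3 kb. Of the 38 genes without a peak, 13 had a summit between 30 and 100 kb and 6 had none within 1 Mb, namely Epha7, Sema3a, Unc5d, Sema3c, Epha5 and Sema3d. With the span extended by 100 kb, 64.8% of members had a peak, beside 61.4% of length-matched genes and 54.0% of all. The share of other genes without a summit within 1 Mb was not computed. All 14 marked members of the longest decile held a summit inside the span, and for the 17 unmarked ones the nearest was at least 64.9 kb away. In genes this long the span makes up most of the window. The same values were not computed for other genes of that decile, so they are not read as a trait of the members.

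**Figure D5:**
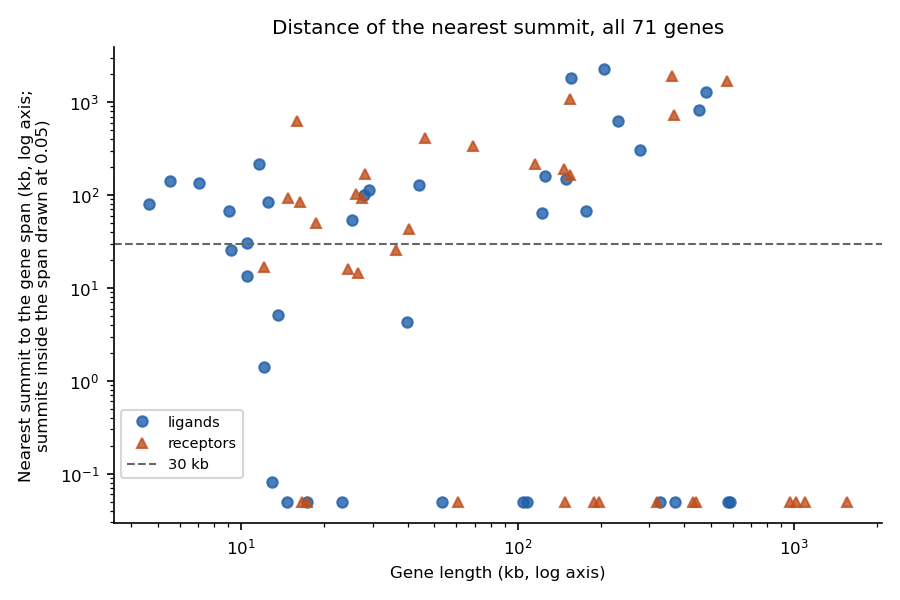
Distance of the nearest summit to the gene span (kb, vertical log axis) against gene length (kb, horizontal log axis) for all 71 axon guidance genes, with ligands as circles and receptors as triangles. Genes with a summit inside are drawn at 0.05 kb, and the dashed line is the 30 kb limit: Efna2 lies just above it at 30.6 kb.

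Genes of the signalling machinery behind these receptors were set beside them. A list of 62 co-receptors and intracellular effectors had peaks at 41 genes, 66.1% (exact interval 53.0 to 77.7), where 45.2% of genes of their lengths and 32.4% of all genes had one. The interval of this list lies above its length-matched share, while that of the 71 ligands and receptors does not. However, the list was put together with earlier results of these data known, so its interval is no test of enrichment. Some of its genes were marked only by summits outside their span, and the nearest-gene rule was not applied to it. The difference between the 2 lists was not tested. Chn1, which encodes α-chimaerin, an effector of EphA4 on Rac, had the strongest peak of 39.4, 308 bp from a start. Pak2, a kinase gene downstream of Rac and Cdc42, had 32.7, but inside Cep19, 20769 bp away. Tiam1, a Rac exchange factor gene, had 25.7 and Srgap1, a Slit-Robo GTPase-activating protein gene, had 24.7, both inside. The kinase gene Abl1 had 20.2, inside, and the phosphatase gene Ptpn11 had 18.8 at 14.4 kb from the gene. Among those without a peak were Rac1, Rhoa, Fyn, Enah, Vasp and L1cam.

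For the list as a whole, a peak is no measure of expression, and no expression data were used. As a look at the labelled tissue, 8 of 11 genes of striatal and GABAergic neurons had a peak by the same rule, among them Drd1, Drd2 and Ppp1r1b, beside 34.6% of genes of their lengths. Markers of other cell types had one at 5 of 18, 27.8%, beside 33.8% of genes of their lengths and 32.4% of all genes. Intervals cover counting error within this 1 list only, and fragments amplified by PCR are not independent molecules.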

How the data were processed

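Chromatin immunoprecipitation libraries of mouse striatum, 3 IP fractions and 1 input by their labels, are represented by 1 deposited peak list. The submitters' processing notes list Bowtie2 2.3.4.2, MACS2 2.1.1.20160309.0 and the mm10 or GRCm38 build, with neither role nor settings. The sources used here do not say whether IP fractions were pooled for calling. Per the file headers and values, each peak has the authors' pileup signal at its summit, the fold enrichment as a linear ratio to local background, and −log10 of its p-value and q-value. These are the authors' scores and only describe or filter peaks. Pileups were multiples of 0.939, which gave fragments per summit, and the background was recovered as (pileup + 1) / fold − 1. Library totals were not used.

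Genes, starts and promoter sequences are those of RefSeq for GRCm38.p6, the build of the files, on chromosomes 1 to 19, X and Y. Summits in each gene span extended by 30 kb were counted with Python 3.11.15 and pandas 2.3.3, checked on artificial data. For length matching, other protein-coding genes were averaged within 10 length bins, weighted by the members in each. Intervals are exact (Clopper-Pearson or Poisson, scipy 1.17.1) at 95%. No test was run, because no value per library exists. Values are given for every member with a peak and for the 6 signalling genes with the strongest peak. The members and lists were chosen with earlier results of these data known. Alternatives changed the peak threshold, the window and the length matching.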

Additional observations from a re-analysis of the deposited data

How the results depend on the processing

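The share of axon guidance genes with a peak minus that of length-matched genes was 4.02 percentage points and lay between 0.175 and 5.47 in 11 of 12 alternatives. It turned to -1.22 without the 1% highest pileups and 1% widest peaks. That setting left 58 of the 63 peaks at members, and none at Efna1, Ntn5, Robo3 and Robo4. Every one of these values is within counting error of 0. At −log10 q of 10 or more, the members kept 27 peaks in place of 63, with a median fold of 8.46 and 0.152 peaks per 100 kb, and above the median fold 25 peaks, with 8.8 and 0.141. Both settings kept 22 of the 33 genes and dropped Robo1, Robo2, Slit2, Epha4, Ephb4, Ntn4, Ntng1, Plxnb2, Sema4c, Sema4d and Sema6c. The span extended by 100 kb held 103 peaks. Windows of 30 kb around either end held 36 peaks, 0.515 per 100 kb. Of 50 comparisons with an alternative, 40 were kept, 9 moved and 1 reversed its sign. The rule for keeping was wide. A change from 33 marked genes to 22 or to 46 still counted as kept. Values other than counts were kept when they stayed inside the main interval. No paired analysis was possible because the list has no value per library, and for the same reason no fraction could be left out. Between 11 and 136 fragments per summit limit the precision of each fold.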

Other observations

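The 38 axon guidance genes without a peak lay in 33 stretches between neighbouring summits. Besides Sema3a, Sema3d and Sema3e, the pairs Efna3 and Efna4, Sema3b and Sema3f, and Plxna3 and Plxnb3 each shared one. The stretch around Plxna3 and Plxnb3 on the X chromosome was 1.29 Mb long and held 51 protein-coding genes, whereas that around Epha7 was 4.80 Mb long and held 2. Stretches of over 3 Mb, 99 in number, made up 1.33% of all distances between neighbouring summits. They held Sema3a, Sema3c, Sema3d, Sema3e, Sema5a, Epha5, Epha7 and Unc5d. The 1.33% is a share of stretches, not of genes or of bases. How many other genes lie in such stretches was not counted, so no concentration of members can be read from it. A stretch that holds a gene of some length must be at least that long, so these values are a description of where the unmarked genes lie. How well reads could be placed in these stretches was not tested.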
